A study of Homo sapiens with 38 samples.

Results

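The arrays described here are the 6 on which low-serum IMR90 cells with intact RB can be set side by side, 2 from cells carrying a hairpin against p130 (shp130) and 4 comparators. The comparators are 2 arrays of the empty MLP vector and 2 of a hairpin against p107 (shp107). They were picked from the sample titles, out of 38 arrays in the series. IMR90 cells are human lung fibroblasts. All 6 cultures were kept in medium with 0.1% fetal bovine serum, which the labels call quiescent, and growing cells of the same series were kept in 10% serum. The series holds the same vector and hairpins, and a hairpin against RB (shRB), in growing, confluent and ras-induced senescent cells. Each hairpin is 1 construct per target, per the labels, and every group has n = 2. The labels do not say that replicates came from separate cultures, so the p-values measure the spread between arrays, which may be technical.

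RB, p107 and p130 are the pocket proteins, encoded by RB1, RBL1 and RBL2. They bind E2F transcription factors and hold back genes needed for the cell cycle. In resting cells p130 is the abundant E2F-bound pocket protein and is a core part of the DREAM complex, which joins E2F4 or E2F5, a DP partner and the MuvB subunits at promoters of replication and mitosis genes through E2F sites and the cell cycle homology region (CHR).

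Values are log2 expression, made by the submitters with GCRMA. Each gene is given by 1 probe set. The test was a limma fit of the 32 arrays of experiment 1 with 1 mean per group, in which 8511 genes passed a filter of log2 above 5 on at least 2 arrays. P-values were adjusted by the Benjamini-Hochberg method over all of those genes, with 0.05 as the threshold for a call. The ± after a log2 difference is its standard error (SE). The array medians of the 6 arrays lay between 3.314 and 3.362, and replicate arrays correlated at 0.9912 to 0.9948 over all probe sets. Of 15 fibroblast markers, 15 were above log2 5 on at least 1 of the 6 arrays, while 0 of 13 epithelial and 0 of 11 blood cell markers were. Of 12 endothelial markers the receptor TEK was above that level, at up to 9.52, and PECAM1, VWF, CDH5 and KDR were all under 5. Of 10 smooth muscle and pericyte markers 4 were above it, with ACTG2 at up to 12.57 and DES under 5. Summed log2 levels of those 10 were 54.1 to 54.9 in shp130 and 54.3 to 55.1 in the comparators, and of the 12 endothelial markers 46.5 to 46.7 and 44.3 to 45.8. In bulk RNA, fewer cells expressing a gene and less RNA per cell cannot be told apart.

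The target of the hairpin was checked first. RBL2, which encodes p130, was at 8.47 and 8.0 in the vector arrays and at 8.04 and 7.87 in the shp107 arrays. In the shp130 arrays it was at 5.32 and 5.86. Both shp130 arrays were below all 4 comparators, and RBL2 fell by 2.51 ± 0.23 on the log2 scale, which is 5.68-fold (limma, Benjamini-Hochberg adjusted p = 3.68e-06). The second RBL2 probe set was dim on all 6 arrays, from 2.97 to 3.65. RB1 lay between 9.59 and 9.98 on the 6 arrays, with a difference of 0.03 and a 95% interval from -0.61 to 0.67. RBL1, which encodes p107, was dim throughout, at 4.65 and 3.99 in vector, 2.95 and 3.09 in shp107 and 4.02 and 3.50 in shp130 arrays. The knockdown of p107 in the arrays labelled shp107 was therefore not shown here, since the shp107 minus vector difference of -1.30 was not called (limma, adjusted p = 1.00).

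**Figure D1:**
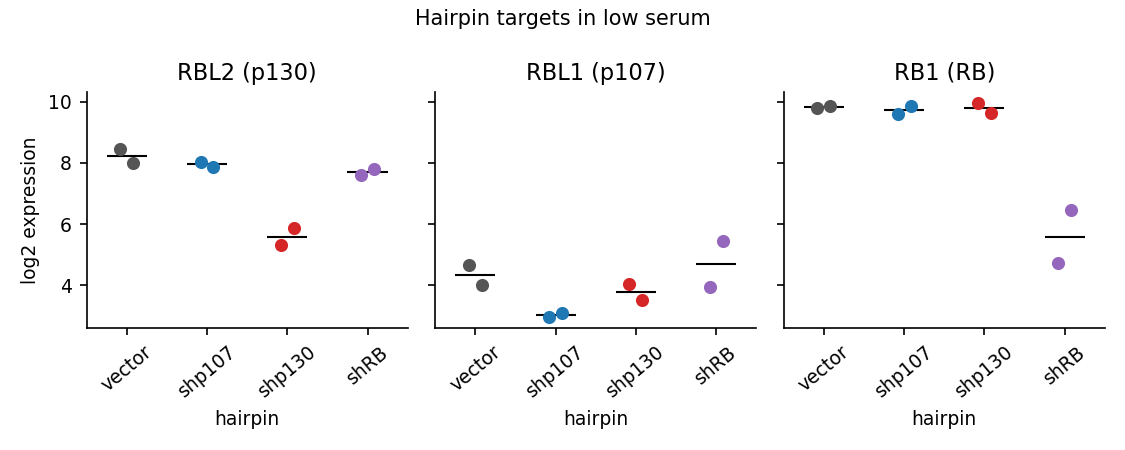
Log2 expression of RBL2, RBL1 and RB1 (vertical axis) on each low-serum array, by hairpin. Points are arrays and lines are means of 2. RBL2 was at 5.32 and 5.86 with shp130 and at 7.87 or above in the 4 comparators, and RB1 was low in the shRB arrays alone.

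Beyond RBL2, few genes separated shp130 from the mean of the 2 comparators in low serum. Of 8511 genes 3 were called, which is 0.0352%, namely the target RBL2, the rise of CKS2 and the fall of JAM3. The count was 6 without vector replicate 1 and 1 without shp130 replicate 2. An unadjusted p under 0.05 was reached by 452 genes (5.31%). The median difference over all genes was -0.01, and 47.5% of genes were higher in shp130. Without overlap between the 2 shp130 arrays and the 4 others, 579 genes (6.8%) were higher and 931 (10.9%) were lower. The called genes and those of smallest p described below were chosen among these.

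CKS2, a small protein that binds cyclin-dependent kinases, was the 1 called gene that rose. It is measured by 1 probe set here, and was at 8.99 and 9.03 in vector, 9.56 and 9.70 in shp107 and 10.55 and 10.71 in shp130 arrays. The groups did not overlap, and the shp107 arrays lay between the other 2 pairs. The rise over the 4 comparators was 1.31 ± 0.20, or 2.48-fold (limma, adjusted p = 0.00837). Against vector alone it was 1.62 ± 0.23 (limma, adjusted p = 0.00307), and against shp107 alone 1.00 ± 0.23 (limma, adjusted p = 0.15). The call was lost without shp130 replicate 1 (limma, adjusted p = 0.091) and without shp130 replicate 2 (limma, adjusted p = 0.456), while the difference stayed between 1.23 and 1.39 over the 6 single-array omissions. The call against vector alone was lost without shp130 replicate 2, and that difference stayed between 1.54 and 1.70 over 4 omissions. The level in shp130 was just below that of growing vector cells, where CKS2 was at 10.79 and 10.98. The low-serum shRB arrays, which stand outside the contrast, were at 9.49 and 9.97.

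JAM3, a junctional adhesion molecule, was the called gene that fell besides the target. It was at 8.40 and 8.27 in vector, 8.32 and 8.21 in shp107 and 7.60 and 7.28 in shp130 arrays. The 4 comparators lay within 0.2 of each other and both shp130 arrays were below them, by 0.86 ± 0.15 (limma, adjusted p = 0.032; difference -0.86). The call did not hold when any 1 of the 6 arrays was left out (limma, adjusted p from 0.0638 to 1.00). Taken singly, JAM3 was called against vector and was not called against shp107. The call against vector did not hold when any 1 of those 4 arrays was left out, with differences from -1.06 to -0.74. The other 2 JAM3 probe sets were dim. All 3 calls, RBL2 included, were lost in a fit of the 6 arrays alone, which has far fewer residual degrees of freedom (limma, adjusted p = 0.0881 for RBL2, 0.0896 for CKS2 and 0.304 for JAM3).

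**Figure D2:**
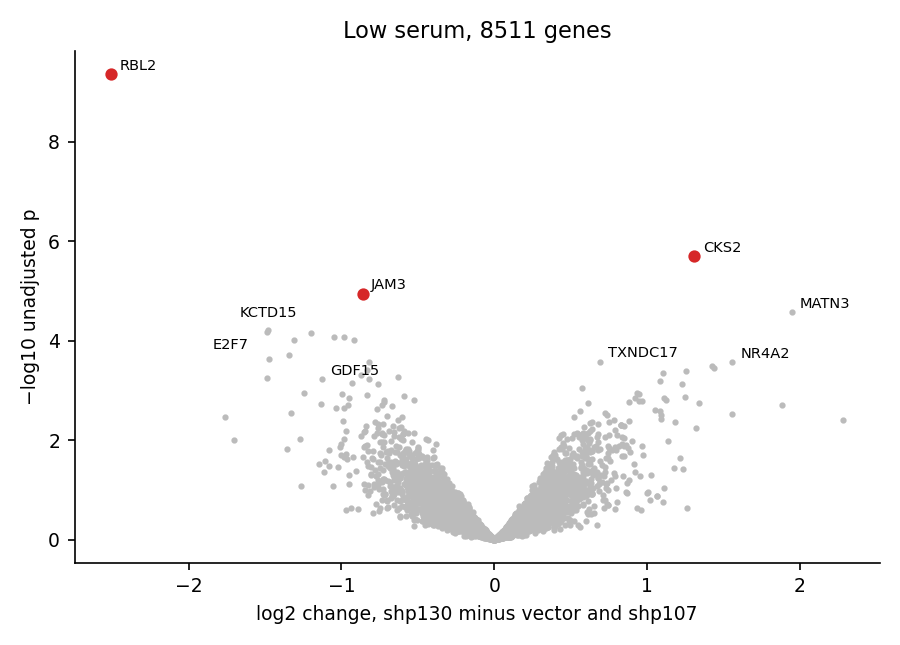
Unadjusted p on a −log10 scale (vertical axis) against the log2 difference of shp130 from the mean of vector and shp107 (horizontal axis) for 8511 genes in low serum. The 3 called genes, RBL2, CKS2 and JAM3, are red. A selection of genes that were not called is also named (MATN3, KCTD15, E2F7, NR4A2, TXNDC17 and GDF15).

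Just outside the threshold stood MATN3, which encodes the cartilage matrix protein matrilin-3. It was at 5.59 and 4.76 in vector, 4.50 and 4.27 in shp107 and 7.28 and 6.18 in shp130 arrays. Both shp130 arrays were above all 4 comparators, with a difference of 1.95 ± 0.36 (limma, adjusted p = 0.0566). Against shp107 alone MATN3 rose by 2.35 ± 0.42 (limma, adjusted p = 0.0441). That call was lost without shp130 replicate 1, shp107 replicate 1 or shp107 replicate 2 (limma, adjusted p up to 0.733). Against vector alone the difference was 1.55 ± 0.42 (limma, adjusted p = 0.155).

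E2F7, a transcriptional repressor of the E2F family and itself a cell cycle gene, was at 5.44 and 6.39 in vector, 5.96 and 6.94 in shp107 and 4.84 and 4.55 in shp130 arrays. The shp130 arrays were the lowest 2 of the 6, and the difference of -1.49 ± 0.30 was not called (limma, adjusted p = 0.0764). KCTD15, a BTB-domain protein, was at 6.67 and 6.65 in vector, 5.91 and 6.22 in shp107 and 4.89 and 4.88 in shp130 arrays. Its difference of -1.48 ± 0.29 had the same adjusted p, 0.0764 (limma), and against vector alone it fell by 1.77 ± 0.34 (limma, adjusted p = 0.0267). The KCTD15 call against vector was lost when any 1 of those 4 arrays was left out (limma, adjusted p from 0.0774 to 0.324).

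The other genes of smallest p below the comparators were TTL, the tubulin tyrosine ligase, with a difference of -1.20, AP4E1, a subunit of an adaptor complex for vesicles, with -0.98, CKB, the brain-type creatine kinase, with -1.05, SLC25A44, a mitochondrial carrier, with -0.92, CCSER2 with -1.31 and ABHD3, a phospholipase, with -1.35. None of these 6 was called (limma, adjusted p from 0.0764 to 0.135). The shp130 arrays were under log2 5 for CKB (4.41 and 4.10) and ABHD3 (4.40 and 3.91), as they were for E2F7 and KCTD15. Background may therefore limit the measured size of these falls. On the higher side were NR4A2, a nuclear receptor induced early by many stimuli (1.56), SNHG19, a small nucleolar RNA host gene (1.44), SCN7A, a sodium channel subunit (1.43), CFAP68 (1.25), ARL15 (1.23), NDUFA3, a subunit of respiratory complex I (1.10), AAMDC (1.08) and TXNDC17, a thioredoxin-like protein (0.69). None of these 8 was called either (limma, adjusted p from 0.141 to 0.212). Against vector alone SNHG19, ARL15, NDUFA3 and TXNDC17 were called, and each call was lost without vector replicate 2 and without shp130 replicate 2. SCN7A was at 4.91 and 4.57 in vector, 5.09 and 4.72 in shp107 and 5.45 and 7.05 in shp130 arrays. Its difference ran from 0.63 to 2.23 over the 6 single-array omissions. NR4A2 was at 4.83 and 3.87 in vector, 3.50 and 4.02 in shp107 and 5.28 and 5.94 in shp130 arrays, so most of its values were near background. Its other 2 probe sets did not separate the groups. In 1 the difference was 0.05, and in 1 it was 1.05, with a shp130 array at 3.49 inside the comparators.

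**Figure D3:**
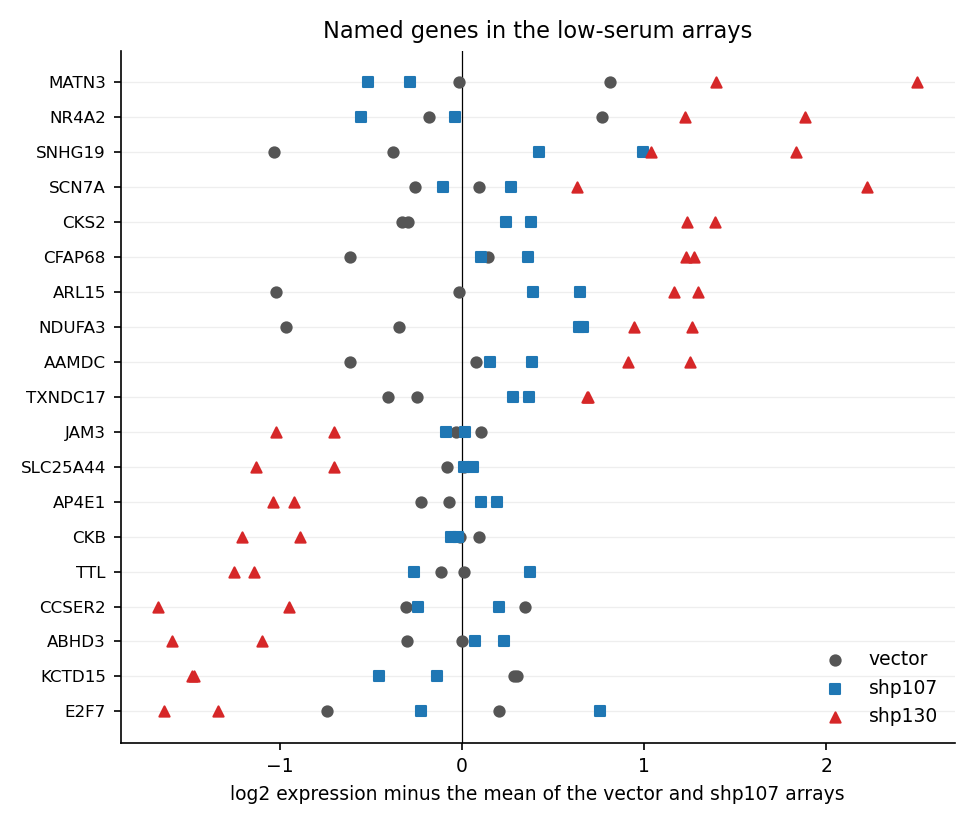
Log2 expression on each of the 6 low-serum arrays minus the mean of the 4 vector and shp107 arrays (horizontal axis), for CKS2, JAM3 and 17 genes that were not called. The genes were chosen so that the 2 shp130 arrays lie outside the 4 comparators, as they do in 6.8% (higher) and 10.9% (lower) of all genes. In several, such as CKS2, NDUFA3 and SNHG19, the shp107 arrays lie between vector and shp130.

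The promoters of CKS2, E2F7 and MATN3 are shown because CKS2 and E2F7 are cell cycle genes that lay on opposite sides of the comparators and MATN3 was the gene nearest to the threshold. Each is the 250 bases before the RefSeq start site on the gene's strand in GRCh38.p14, at chr9:89310945-89311194 (plus strand) for CKS2, chr12:77065570-77065819 (minus strand) for E2F7 and chr2:20012669-20012918 (minus strand) for MATN3. Capitals mark the CHR letters TTTGAA read on the opposite strand.
CKS2: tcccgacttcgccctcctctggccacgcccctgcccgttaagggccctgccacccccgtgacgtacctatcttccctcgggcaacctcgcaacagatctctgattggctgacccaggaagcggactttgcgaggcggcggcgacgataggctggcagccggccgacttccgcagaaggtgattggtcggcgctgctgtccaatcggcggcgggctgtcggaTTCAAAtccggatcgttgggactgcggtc
E2F7: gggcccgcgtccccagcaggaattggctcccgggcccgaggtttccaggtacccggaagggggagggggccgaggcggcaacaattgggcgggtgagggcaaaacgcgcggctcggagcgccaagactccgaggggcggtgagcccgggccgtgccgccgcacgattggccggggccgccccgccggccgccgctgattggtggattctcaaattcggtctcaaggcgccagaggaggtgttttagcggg
MATN3: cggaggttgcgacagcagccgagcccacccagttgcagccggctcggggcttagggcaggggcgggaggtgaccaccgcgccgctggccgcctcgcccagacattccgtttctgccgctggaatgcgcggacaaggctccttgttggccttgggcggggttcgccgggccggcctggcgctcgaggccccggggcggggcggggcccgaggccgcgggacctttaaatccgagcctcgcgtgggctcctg
The CHR letters were searched on both strands from 250 bases before to 50 after the start, as were 4 E2F-type words (TTTCCCGC, TTTGGCGC, TTTCGCGC and TTCCCGCC, which can overlap one another). CKS2 held the CHR letters from -29 to -24 and none of the E2F-type words, and E2F7 and MATN3 held neither. CHR letters occur in 15.4% of 27305 RefSeq promoters and in 10.2% of the 7123 promoters of genes tested here. They occurred in 2 of 9 promoters of the named genes on the higher side (CKS2 and CFAP68) and in 1 of 7 on the lower side (AP4E1). E2F-type words occur in 5.07% of all promoters and 8.55% of those of genes tested, and in 0 of these 16 promoters.

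Genes of the kinds that p130 and DREAM are known to hold back were, CKS2 aside, not called in the low-serum contrast. Of 42 genes of DNA replication and the G1/S transition 0 were called, 20 were higher, and the median difference was -0.02, against -0.01 over all genes. An unadjusted p under 0.05 was reached by 2 of the 42, beside 5.31% of all genes, and 47.5% of all genes were higher. Of 56 genes of mitosis and G2/M 1 was called, CKS2, 26 were higher, and the median was -0.03. The mean log2 level of the replication genes was 6.36 and 6.37 in the shp130 arrays, inside the range of 6.26 to 6.57 of the 4 comparators. In growing vector cells it was 7.27 and 7.35. For the mitosis genes the shp130 arrays were at 5.72 and 5.85, the comparators between 5.46 and 6.18, and growing vector cells at 7.60 and 7.90. The 2 vector arrays differed from each other more than the shp130 arrays did from either of them in the replication genes.

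**Figure D4:**
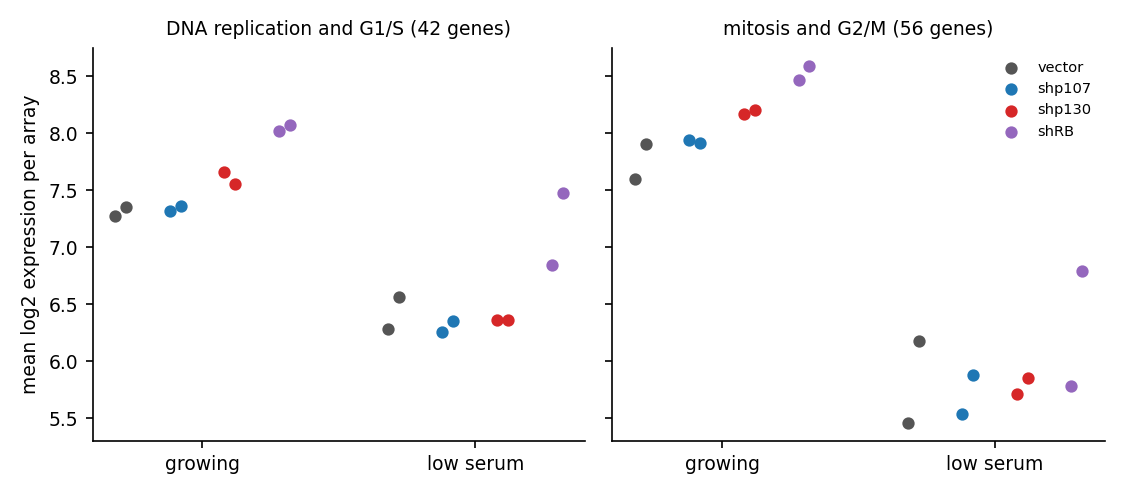
Mean log2 expression per array (vertical axis) of 42 replication genes and 56 mitosis genes in growing and low-serum cells, by hairpin. In low serum the shp130 arrays (6.36 and 6.37, and 5.72 and 5.85) lie within the range of the vector and shp107 arrays, and in growing cells they lie above it.

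Among 14 tested pocket protein, E2F, DP and MuvB genes, RBL2 alone was called. E2F3, an activating E2F, differed by 0.13, the DP partner TFDP1 by -0.42, the MuvB subunit LIN52 by 0.05 and RBBP4, the histone-binding MuvB subunit, by -0.04, and none passed the test. Of 11 tested CDK inhibitors, G1 cyclins and G1 CDKs 0 were called, with 1 higher and 1 lower at an unadjusted p under 0.05 (limma). CCND2, which encodes cyclin D2, was at 6.0 and 6.65 in vector, 6.49 and 5.83 in shp107 and 6.96 and 8.64 in shp130 arrays, a difference of 1.56 ± 0.46 (limma, adjusted p = 0.392). The 2 shp130 arrays were above the others but far apart from each other. CDK6 differed by -0.53 (limma, adjusted p = 0.827) and CDKN1A, the inhibitor p21, by -0.40 (limma, adjusted p = 0.976).

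Of 26 p53 target genes 0 were called and 3 were higher, with a median of -0.10 and 2 at an unadjusted p under 0.05 (limma). Over all genes 47.5% were higher, the median was -0.01 and 5.31% reached that p. The 2 p53 targets at that p were GDF15, a stress-induced secreted factor, and RRM2B, the p53-inducible ribonucleotide reductase subunit. GDF15 was at 7.73 and 8.05 in vector, 7.76 and 8.05 in shp107 and 6.90 and 6.64 in shp130 arrays, a difference of -1.13 ± 0.28 (limma, adjusted p = 0.196). RRM2B was at 9.48, 9.45, 9.41 and 9.30 in the 4 comparators and at 8.88 and 8.67 in shp130, a difference of -0.63 ± 0.15 (limma, adjusted p = 0.195). In both genes, picked as the 2 of smallest p in the list, the shp130 arrays were below all comparators, as in 10.9% of all genes. Of 35 collagen and matrix genes 0 were called, 7 were higher and the median was -0.16, with 4 lower at an unadjusted p under 0.05 (limma). THBS2, a matricellular protein, was at 5.90 and 5.35 in vector, 6.56 and 6.56 in shp107 and 4.41 and 5.10 in shp130 arrays. No member of the lists of histones, immediate early genes, RAS and ERK response, secreted inflammatory factors, secreted proteases, contractile genes, lipid synthesis, interferon response, lysosome, FOXO-responsive genes or BMP and TGF-beta signalling was called (limma), and their medians lay between -0.13 and 0.11. At an unadjusted p under 0.05 each held at most 2 members in either direction.

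The comparators were not alike for every gene, and the pooled contrast averages over that. Against vector alone 23 genes were called (0.27%), 20 higher and 3 lower in shp130 (10 higher and 3 lower with arrays centred on their median). Against shp107 alone 3 were called (0.0352%), RBL2, MATN3 and TFPI2. That count was 1 without shp107 replicate 2 and 5 without shp130 replicate 1. Between shp107 and vector 3 were called as well (0.0352%), MT1H, MT2A and TFPI2, and that count was 5 without vector replicate 1, 11 without vector replicate 2 and 0 without shp107 replicate 2. TFPI2, a secreted protease inhibitor, was at 11.80 and 11.12 in vector, 10.24 and 9.26 in shp107 and 11.56 and 11.55 in shp130 arrays. The shp130 arrays lay among the vector arrays and the shp107 arrays lay below both, by 1.71 ± 0.30 against vector (difference -1.71; limma, adjusted p = 0.0407), a call lost without vector replicate 1 or shp107 replicate 2 (limma, adjusted p up to 1.00). TFPI2 was higher in shp130 than in shp107 by 1.80 ± 0.30 (limma, adjusted p = 0.0296), a call lost without shp107 replicate 2 or either shp130 array (limma, adjusted p up to 0.733).

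Some genes were above vector with either hairpin, in comparisons that use the same 2 vector arrays. MT2A, a metal-binding metallothionein, was at 10.40 and 10.70 in vector, 11.70 and 12.01 in shp107 and 11.58 and 11.87 in shp130 arrays. Its difference from vector was 1.18 ± 0.18 in shp130 (limma, adjusted p = 0.00663) and 1.31 ± 0.18 in shp107 (limma, adjusted p = 0.0044), and shp130 differed from shp107 by -0.13. The shp130 call was lost without shp130 replicate 2 (limma, adjusted p = 0.296), and the shp107 calls of MT2A and MT1H without vector replicate 1 or shp107 replicate 2 (limma, adjusted p up to 0.44 and 0.60). Metallothioneins are near-identical, so their probe sets may share signal. NDUFA3 was at 7.85 and 7.23 in vector, 8.84 and 8.86 in shp107 and 9.14 and 9.45 in shp130 arrays, with a call against vector (1.76 ± 0.31; limma, adjusted p = 0.0118) that was lost without vector replicate 2, shp130 replicate 1 or shp130 replicate 2 (limma, adjusted p up to 0.316). Over 68 respiratory chain and ATP synthase genes, a list added after values had been seen, the median difference from vector was 0.63 in shp130, with 6 called, and 0.55 in shp107, with 0 called, while shp130 differed from shp107 by a median of 0.08. In the contrast against both comparators 58 of the 68 were higher with a median of 0.31, 0 were called and 22 were higher at an unadjusted p under 0.05 (limma), beside 47.5% higher and 5.31% at that p over all genes. Their mean log2 level was 9.98 and 9.67 in vector, 10.33 and 10.34 in shp107 and 10.36 and 10.44 in shp130 arrays. The vector arrays were low for these genes, and without vector replicate 1 the count against vector rose from 23 to 41, while without replicate 2 it was 5. It was 6 without shp130 replicate 1 and 1 without shp130 replicate 2.

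Growing cells gave a second set of 6 arrays that the contrast did not use. Of 8511 genes 15 were called there (0.176%), 12 higher and 3 lower in shp130, and shp107 against vector gave 0 calls in that state (limma), with 117 genes at an unadjusted p under 0.05. Against vector alone 5 were called (0.0587%) and against shp107 alone 16 (0.188%). Leaving out replicate 1 or replicate 2 changed these 15 calls to 31 or 7 for growing vector, to 8 or 24 for growing shp107 and to 5 or 7 for growing shp130. RBL2 was at 7.72 and 7.67 in vector, 7.99 and 6.94 in shp107 and 5.19 and 5.49 in shp130 arrays, and fell by 2.24 ± 0.23 (limma, adjusted p = 1.36e-05). JAM3 was at 8.69, 8.47, 8.39 and 8.10 in the comparators and at 7.52 and 7.70 in shp130, and fell by 0.80 ± 0.15 (limma, adjusted p = 0.0207). MATN3 was at 4.97, 4.55, 4.64 and 4.32 in the comparators and at 6.70 and 6.52 in shp130, and rose by 1.99 ± 0.36 (limma, adjusted p = 0.0186). The JAM3 call was lost in 4 of 6 single-array omissions (growing vector replicate 1, shp107 replicate 1 and either shp130 array) and the MATN3 call in 3 (growing vector replicate 2 and either shp130 array), with adjusted p up to 0.449 and 0.401 (limma). CKS2 differed by 0.41 ± 0.20 in growing cells (limma, adjusted p = 0.796), where all arrays were at 10.79 or above. Of the 19 named genes of the low-serum contrast other than RBL2, 15 had the same direction in growing cells and 2 were called, beside 59.4% with the same direction over all genes.

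In growing cells more of the replication and mitosis genes had positive than negative differences with shp130, with 0 calls among them (limma). Of the 42 replication genes 33 were higher with a median of 0.21, and of the 56 mitosis genes 46 were higher with a median of 0.36, beside a median of -0.00 over all genes. An unadjusted p under 0.05 was reached by 7 higher and 1 lower replication genes and by 9 higher mitosis genes, beside 547 of 8511 genes (6.43%), 231 higher and 316 lower, and 49.2% of all genes were higher. The difference of the shp130 effect, low serum minus growing, had a median of -0.28 in the replication genes and -0.26 in the mitosis genes, with 0 calls among them (limma). An unadjusted p under 0.05 was reached there by 4 lower replication genes, and by 6 lower and 1 higher mitosis genes, beside 221 of 8511 genes (2.6%), 90 higher and 131 lower.

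EREG, the growth factor epiregulin, was the 1 gene whose shp130 effect was called as different between these states. In growing cells it was at 4.46 and 4.14 in vector, 3.78 and 4.48 in shp107 and 7.56 and 7.63 in shp130 arrays. The shp130 arrays were far above the rest, by 3.38 ± 0.21 (limma, adjusted p = 2.71e-09). In low serum it was between 3.09 and 3.27 in the comparators and at 3.28 and 3.78 in shp130, near background, with a difference of 0.36 ± 0.21 (limma, adjusted p = 0.999). The difference between the 2 states was -3.02 ± 0.30, the 1 call of 8511 genes (0.0117%; limma, adjusted p = 1.36e-05), which became 5 calls without growing vector replicate 1. EREG was called in all 12 single-array omissions and with either comparator alone. IL13RA2, a decoy receptor for interleukin-13, rose by 3.23 ± 0.47 in growing cells (limma, adjusted p = 0.00169), from 6.34, 3.99, 3.44 and 5.16 in the comparators to 7.70 and 8.23, and that call was lost without growing shp130 replicate 2 (limma, adjusted p = 0.0927).

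At confluence the 2 comparators stand apart, so a mean over them describes neither. The labels of these vector and shp107 arrays could not be checked by the target, since RBL1 was dim in both, at 3.29 and 4.11 in vector and 3.42 and 3.02 in shp107, and whether the gap comes from the hairpin, the cultures or the labels cannot be told apart. Between shp107 and vector 1148 genes were called there (13.5%). Against vector alone shp130 differed in 2 genes (0.0235%), and against shp107 alone in 1412 (16.6%). The pooled contrast gave 396 calls (4.65%), which became 829 without vector replicate 1, 239 without shp107 replicate 2 and 189 without shp130 replicate 1. The shp130 effect in low serum differed from the one at confluence in 42 genes (0.493%) with the pooled comparators, in 0 (0%) with vector alone (limma, with 377 at an unadjusted p under 0.05) and in 411 (4.83%) with shp107 alone. RBL2 fell against either, by 2.85 ± 0.26 against vector (limma, adjusted p = 4.79e-06) and by 2.55 ± 0.26 against shp107 (limma, adjusted p = 7.79e-07). MATN3 was at 9.38 and 10.12 in vector, 4.10 and 4.68 in shp107 and 11.15 and 9.73 in shp130 arrays. Its difference was 0.69 ± 0.42 against vector (limma, adjusted p = 0.966) and 6.05 ± 0.42 against shp107 (limma, adjusted p = 1.70e-09). In the confluent shRB arrays, outside the contrast, MATN3 was at 3.43 and 4.24. NR4A2 was at 5.29 and 5.33 in those arrays, 4.81 and 4.81 in shp107, 11.86 and 12.27 in vector and 12.16 and 11.76 in shp130. Whether shRB lay near shp107 in other genes was not tested. CKS2 was at 9.59 and 10.37 in vector, 9.97 and 10.06 in shp107 and 10.68 and 10.69 in shp130 arrays, with a difference of 0.71 ± 0.23 from vector (limma, adjusted p = 0.701) and 0.67 ± 0.23 from shp107 (limma, adjusted p = 0.0524). JAM3 differed by -0.27 ± 0.17 and -0.29 ± 0.17 from vector and shp107, neither of them called.

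**Figure D5:**
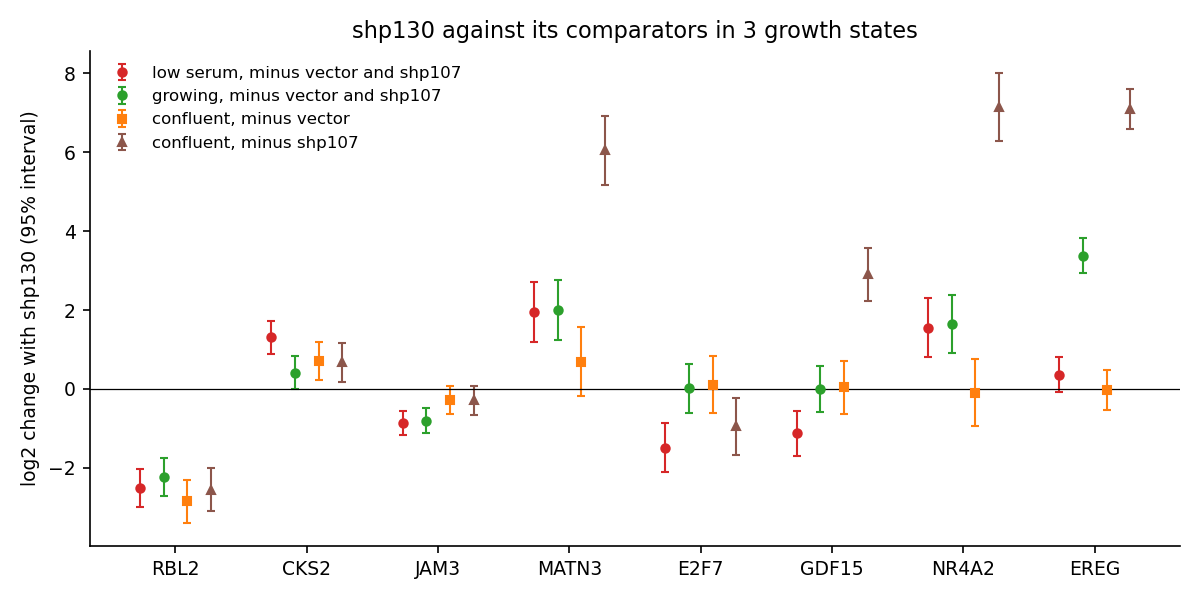
Log2 difference of shp130 (vertical axis) with its 95% interval for 8 genes, against the mean of vector and shp107 in low serum and in growing cells, and against each of them apart at confluence. RBL2 is below 0 in each comparison, EREG is at 3.38 in growing cells and 0.36 in low serum, and at confluence MATN3, NR4A2 and EREG are far from shp107 and near vector.

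Senescent cells add values without a test. JAM3 was at 7.31 and 7.26 in the senescent shp130 arrays and between 8.04 and 8.55 in the 4 senescent vector and shp107 arrays. CKS2 was at 11.35 and 11.38 with shp130, 10.38 and 10.83 with vector and 8.69 and 8.29 with shp107. MATN3 was near background in all of these senescent arrays, at 3.08 to 3.86.

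The low-serum shRB arrays, outside the contrast, stood above the shp130 arrays in some cell cycle genes. Between shp130 and shRB in low serum 24 genes were called (0.282%), 6 higher and 18 lower in shp130. RB1 was at 4.73 and 6.45 in the shRB arrays, 4.22 ± 0.36 below shp130 (limma, adjusted p = 8.53e-07). Of the 42 replication genes 4 were called lower in shp130 and 5 had a positive difference, with a median of -0.77. Of the 56 mitosis genes 1 was called lower and 10 had a positive difference, with a median of -0.53. Over all genes 51.5% had a positive difference and the median was 0.01. An unadjusted p under 0.05 was reached by 25 lower and 0 higher replication genes, and by 13 lower and 2 higher mitosis genes (limma). Over all genes 795 of 8511 reached it, 353 higher and 442 lower. CCNE2, cyclin E2, was at 3.83 and 3.64 in shp130, 5.69 and 7.02 in shRB and between 3.82 and 4.83 in the vector and shp107 arrays. It was lower in shp130 than in shRB by 2.62 ± 0.42 (difference -2.62; limma, adjusted p = 0.0066). CDT1, a replication licensing factor, was at 3.54 and 3.18 in shp130 and at 5.02 and 5.60 in shRB arrays (difference -1.95 ± 0.40; limma, adjusted p = 0.035). In the shp130 arrays CCNE2 and CDT1 were near background and passed the filter through other groups. How far they lay below shRB could therefore hardly be measured. The CCNE2 call was lost without shRB replicate 2 or shp130 replicate 2 (limma, adjusted p up to 0.105), and the CDT1 call without shRB replicate 2 or either shp130 array (limma, adjusted p up to 0.337). CKS2 went the other way, with 0.90 ± 0.23 more in shp130 than in shRB (limma, adjusted p = 0.127). CCND2 was higher in shp130 than in shRB by 3.0 ± 0.53 (limma, adjusted p = 0.0158), a call lost without shRB replicate 1 or shp130 replicate 2 (limma, adjusted p up to 0.321). The count of 24 was 81 without shRB replicate 1, 10 without shRB replicate 2, 9 without shp130 replicate 1 and 6 without shp130 replicate 2.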

How the data were processed

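The authors deposited log2 values, 1 per probe set and array, which the submitters' processing notes credit to GCRMA. Its version, and whether the 38 arrays went through it as 1 set, are not given in the sources used here. Of 54613 probe sets, 41091 named 1 gene in GEO's platform annotation, 1801 named several and 11721 were not matched. Each of 19775 genes was given by its probe set of highest mean over 38 arrays. The 32 arrays of experiment 1 (16 groups of 2) were fitted in limma 3.58.1 (R 4.3.3) with 1 mean per group and eBayes, with 16 residual and 4.85 prior degrees of freedom. There were 9 contrasts, each adjusted by the Benjamini-Hochberg method over 8511 genes. The fit was tested on simulated data. Precision is limited by the 2 arrays per group.

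Named genes were those called, filled to 10 per direction by smallest p without overlap, up to 4 called members (or the 2 of smallest p) per list, up to 5 per direction in the other comparisons, and any member of the pocket protein and CDK lists. The comparison, its members and the 22 lists were chosen with earlier results of these data known. The respiratory chain list, the metallothioneins, the comparators taken singly and the senescent values were added after values were seen. Promoters are RefSeq's (GRCh38.p14), with none listed for NR4A2, JAM3 and KCTD15. Alternatives were other fits, normalizations, filters, probe set rules and single-array omissions.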

Additional observations from a re-analysis of the deposited data

Results flagged for a closer look

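In 1 gene the effect of shp130 differed between low serum and growing cells by a test of the difference. The low-serum minus growing difference of EREG was -3.02 (limma, adjusted p = 1.36e-05), and it was called with vector alone (-2.92) and with shp107 alone (-3.12) as comparator. EREG was at 3.09 to 3.78 on all 6 low-serum arrays, near background, and passed the filter through other groups, so its low-serum difference of 0.36 is not a measured lack of effect.

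For 16 of the named genes the same test was passed between low serum and confluence, with the pooled comparators. CXCL2, CXCL6, EREG, IL13RA2, PTGS2 and RGS5 were under 5 on all 6 low-serum arrays, so a low-serum difference could hardly be measured for them. The low-serum minus confluence difference was -4.23 for CXCL2, -4.21 for CXCL6, -3.18 for EREG, -2.61 for GDF15, -4.61 for IL13RA2, -4.00 for MMP3, -4.79 for PTGS2, -4.46 for RGS5 and -2.72 for THBS2. It was 2.63 for GPRC5A, 1.97 for NAV2, 2.35 for SCN7A, 1.79 for SLC2A1, 2.31 for SULF1, 1.73 for TNFSF4 and 1.04 for TXNDC17. With vector as the sole comparator 0 of 8511 genes were called (limma), with 377 at an unadjusted p under 0.05, and with shp107 as the sole comparator 411 were called. With vector alone the 16 differences ran from -1.33 (CXCL6) to 1.51 (SCN7A), and those of EREG (0.40) and TNFSF4 (-0.78) had the opposite sign. PTGS2 gave -1.14 with vector and -8.44 with shp107 alone. TXNDC17 gave 1.24 with vector and 0.83 with shp107, neither of them called. Of 12 single-array omissions, the pooled call was lost in 9 for TNFSF4 (the 2 confluent vector arrays and low-serum vector replicate 2 were the omissions that kept it), 8 for TXNDC17 (low-serum vector replicate 2, confluent shp130 replicate 1, and both shp107 arrays of either state and both low-serum shp130 arrays), 6 for THBS2 (low-serum vector replicate 1, low-serum shp107 replicate 2, both low-serum shp130 arrays, confluent shp107 replicate 1 and confluent shp130 replicate 1) and 3 each for CXCL2, GPRC5A, MMP3 and PTGS2 (both low-serum shp130 arrays and confluent shp130 replicate 1), SULF1 (both low-serum shp130 arrays and confluent shp130 replicate 2) and SCN7A (low-serum shp107 replicate 2, low-serum shp130 replicate 2 and confluent shp130 replicate 2). It was lost in 2 for NAV2 (low-serum shp130 replicate 2 and confluent shp130 replicate 1) and SLC2A1 (both low-serum shp130 arrays), with adjusted p up to 0.234 over all of these (limma). The calls of CXCL6, EREG, GDF15, IL13RA2 and RGS5 held in all 12.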

How the results depend on the processing

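Over 105 gene differences and 1732 alternative values, 1661 kept their side of the threshold or stayed within the spread, 15 lost a call, 13 gained one, 43 moved and 0 reversed. The count of 3 in the low-serum contrast was 0 in a fit of the 6 arrays alone, 1 with vector and shp107 as 1 group, 6 with the median over probe sets or with every probe set, and 9 without the confluent vector arrays, an alternative chosen after seeing the data. MATN3 was called with a low-serum filter, the median over probe sets or an intensity trend (adjusted p from 0.0340 to 0.0481, limma), and JAM3 was not called with the trend (adjusted p = 0.0883, limma). The median difference of the matrix list was -0.30 with the median over probe sets.

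Against vector the count of 23 was 4 in the 6-array fit, 13 with median centring (10 higher and 3 lower), 38 with the median over probe sets and 51 with the trend. Against shp107 the count of 3 was 0 in the 6-array fit, 6 with quantile normalization or either probe set rule, 1 with no filter and 7 without the confluent vector arrays. Between shp107 and vector it was 0 in the 6-array fit, 9 with either probe set rule, 22 with the trend and 10 without the confluent vector arrays. In growing cells 15 became 23 with quantile normalization, 5 with the low-serum filter, 24 with every probe set, 24 without the confluent vector arrays and 5 with vector as the sole comparator. The 1 call for low serum minus growing became 0 with the low-serum filter, which drops EREG. At confluence 396 became 625 with every probe set, 2 with vector alone and 1412 with shp107 alone. For low serum minus confluence 42 became 17 with the low-serum filter, 0 with vector alone and 411 with shp107 alone. Where no construction is named, the cause was not tested.

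Leaving out 1 array at a time gave counts from 1 to 6 in the low-serum contrast, 1 to 41 against vector, 1 to 5 against shp107, 0 to 11 between shp107 and vector, 5 to 31 in growing cells, 1 to 5 for low serum minus growing, 189 to 829 at confluence, 14 to 344 for low serum minus confluence and 6 to 81 against shRB. Replicate letters are shared by the groups, but in low serum the A minus B differences of shp130 correlated with those of vector and shp107 at -0.02 and 0.04, while vector and shp107 correlated at 0.49, and shRB with vector, shp107 and shp130 at 0.22, 0.19 and 0.04. Since the correlations with shp130 were near 0, the letters were not taken as pairs. With the replicate block the low-serum count was 2, JAM3 being lost (adjusted p = 0.0522, limma), and it was 8 against shp107 and 5 between shp107 and vector. With 2 arrays per group, and values near background for NR4A2, MATN3 and RBL1, small changes were not detectable here.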
